A study of Danio rerio with 19 samples.

Results

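The amplicon of casp9, a stretch of zebrafish chromosome 23 read by targeted bisulfite sequencing, was compared between ovaries (9 fish) and testes (10 fish). Its members are the CpGs from position 24973689 to 24974060 of GRCz11 that had 10 or more reads in at least 5 ovaries and 5 testes. They number 19, out of 150 CpGs tested in the 9 regions of the series. All 19 fish were of the AB strain, 90 days old and kept under control conditions in aquarium facilities. The labels give no treatment, so the groups differ by gonad as far as the labels say. Each library was counted as 1 fish and is called by its gonad and its label number, as in ovary 17. The labels do not state that each number is a separate animal, so the p-values measure the spread between these libraries. The link to casp9 comes from the series title and from the chromosome, since this is the only region on the chromosome of casp9. Where in or near the gene the amplicon lies was not analysed here, and its DNA sequence was not used here.

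Caspase-9 is the initiator protease of the mitochondrial pathway of apoptosis. It is activated on the apoptosome, a complex that Apaf-1 forms once mitochondria release cytochrome c, and it then cleaves the effector caspases. In zebrafish the gonads first form as ovary-like tissue, and oocytes die by apoptosis while a testis develops. Methylation of CpGs near the start of a gene is commonly tied to silencing, while many active or poised genes carry hardly any there. In bisulfite sequencing unmethylated cytosine is read as T, so the methylation level is the share of reads that still show C. A gonad is a mixture of germ cells and somatic cells, so each level is an average over all of them.

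The window held 32 cytosine positions, and the 19 used carried 99.9956% of its reads. The 13 positions left out had 228 reads together over all fish, of which 1 was methylated. The most covered of these was 24974016, with 43 reads in its deepest fish and 10 or more reads in that fish alone. The least covered position inside the rule, 24974054, had 2459 to 32620 reads per fish. Its coverage was 31.0% to 99.97% of the median CpG of the same fish, and it was under 60% in 10 fish (4 ovaries and 6 testes). The other 18 CpGs had at least 99.3% of that median. Median coverage of the amplicon was 5408 to 34150 reads in ovaries and 7300 to 18722 reads in testes (ratio of geometric means 1.09, two-sided exact permutation p = 0.707). Intervals from these reads cover counting error only, because reads of 1 PCR product are not independent molecules.

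Some libraries could not be told from each other in other regions. In the first chromosome 5 region of the series, 11 of 171 pairs of fish had counts that agreed within sampling noise (chi-square p of 0.05 or more), of which 3 crossed the gonads. Ovary 1 matched testis 4 there, ovary 11 matched testis 9 and ovary 18 matched testis 14. Depth in that region was uneven: at its CpG 44944807 libraries had 93 to 14577 reads, with a median of 3237. Counts of few reads agree within noise more readily, and the depth of the matched libraries was not compared. In the chromosome 10 region 1 pair agreed, testis 9 with testis 19. At casp9 none of the 171 pairs did, the closest being testis 7 and testis 12 with a chi-square per CpG of 2.84. Reads of 1 PCR product are not independent, so disagreement at this depth does not show that libraries come from separate fish. In no other region did an ovary and a testis agree, among pairs with a median of 50 or more reads. By region mean the gonads did not overlap on chromosomes 10, 18, 19 and 24, with these 6 libraries included. On chromosome 18, for instance, ovaries had 20.1% to 46.1% and testes 77.9% to 80.6%. The means of the other regions overlapped. Whether these ovary-testis pairs share or exchanged material in the first chromosome 5 region or elsewhere was not tested. All 19 libraries were kept, and the main values are also given without these 6, which leaves 6 ovaries and 7 testes.

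casp9 was almost unmethylated in both gonads. The mean over the 19 CpGs was 0.558% ± 0.0496 (SD, 9 ovaries) against 0.621% ± 0.0518 (SD, 10 testes). Put as reads at an average CpG, 55.8 of 10000 were methylated in ovaries and 62.1 of 10000 in testes. The lowest, median and highest fish stood at 0.505%, 0.548% and 0.662% among ovaries, and at 0.566%, 0.610% and 0.727% among testes. The gonads overlapped: 7 of 9 ovaries lay under every testis, but ovary 2 (0.662%) and ovary 17 (0.607%) lay inside the testis range. The difference was -0.0635 points, with a 95% interval of -0.113 to -0.0142 points. It passed when the sex labels were permuted over these libraries (two-sided exact permutation p = 0.0148, adjusted p = 0.0221 over the 9 regions). Of those 9 regions 66.7% passed this test. Without the 6 libraries of the ovary-testis pairs the difference was -0.0590 points and did not pass (adjusted p = 0.101 by exact permutation).

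Summing the read counts of all CpGs gave nearly the same values. In such sums a read is counted once at each CpG it covers. Coverage within a fish was nearly even at all CpGs but 24974054, so the sums are no separate result. Methylated reads made up 0.559% ± 0.0497 (SD, 9 ovaries) against 0.619% ± 0.0521 (SD, 10 testes), a difference of -0.0604 points (exact permutation p = 0.0190). Without the same 6 libraries it was -0.0569 points and did not pass (exact permutation p = 0.0997). With these counts taken as independent, counting error of 1 fish was of a like size where the amplicon was covered least. Ovary 17, with a median of 5408 reads per CpG, had 623 methylated among 102529 counts summed over CpGs. This is 0.608% with a 95% Wilson interval of 0.562% to 0.657%. Counts at different CpGs of 1 read are not independent, so the interval may be too narrow.

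The series title puts casp9 beside il1b, a gene of the inflammatory cytokine interleukin-1 beta, as a gene whose methylation is sexually dimorphic. In the same test the chromosome 10 region, on the chromosome of il1b, had 58.4% ± 6.54 (SD, 9 ovaries) against 84.3% ± 5.56 (SD, 10 testes). Its difference of -25.9 points is 408 times as large as that of casp9. The region mean includes 1 CpG of low coverage, 44956948, with a median of 30 reads. It stood at 0% in the 5 ovaries and 6 testes that had it and lowered their means, so these sizes are approximate. By the median over CpGs the difference of the region was -31.7 points. Both were lower in ovaries. The highest level of any casp9 CpG in any fish was 2.76% in ovaries and 1.18% in testes, so no sex difference at casp9 could exceed 3 points. No conversion control was analysed here. Unconverted cytosines and base errors are counted as methylated, and their part in levels this low was not tested.

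**Figure D1:**
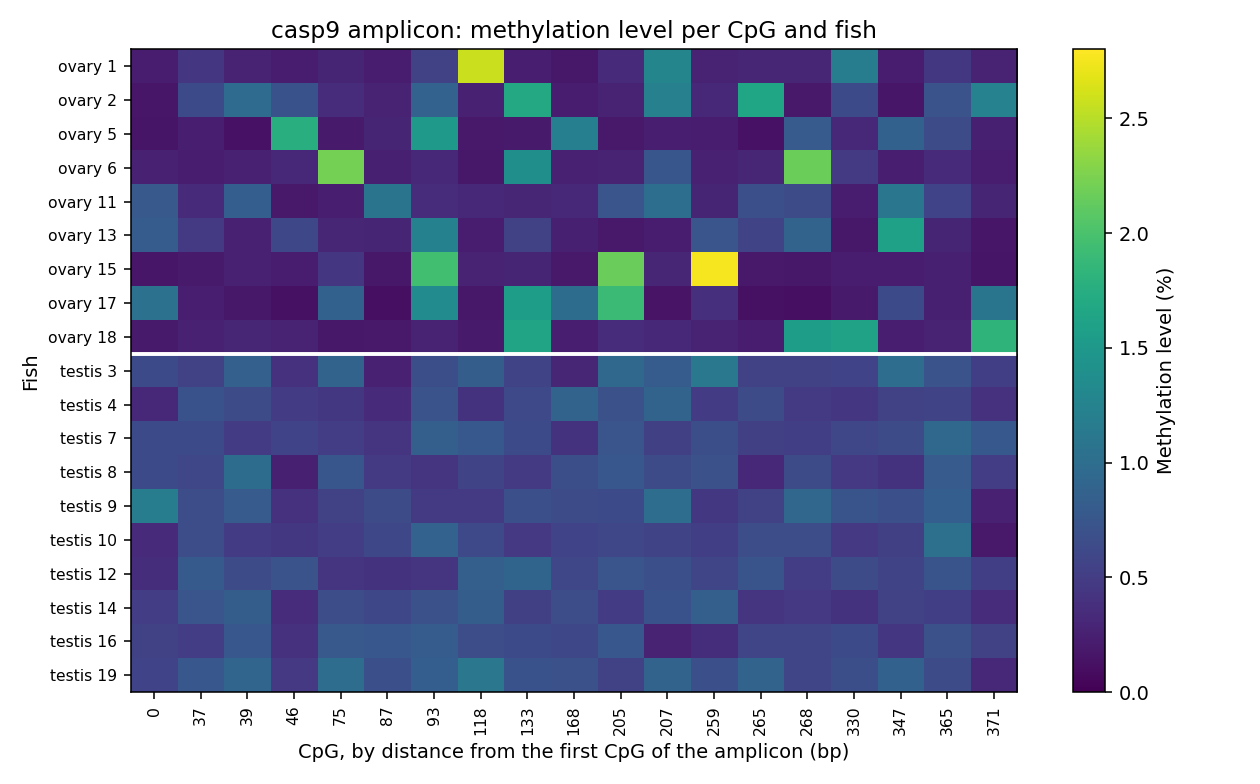
Methylation level (%) of each of the 19 casp9 CpGs (columns, labelled by distance in bp from the first CpG) in each fish (rows, ovaries above the white line, testes under it). Ovary rows are mostly dark with a few bright cells, up to 2.76% in ovary 15. Testis rows are more even and also in the dark part of the scale, slightly lighter than most ovary cells, with no cell over 1.18%.

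The gonads also differed in how methylated reads were spread over the CpGs. The plot of levels by CpG and fish shows the pattern, which was noticed in the data and then measured. In ovaries most CpGs were very low and a few stood out, whereas in testes the CpGs lay closer together. The median over the 19 CpGs was 0.315% ± 0.124 (SD, 9 ovaries) against 0.611% ± 0.0481 (SD, 10 testes). Its difference was -0.296 points with a 95% interval of -0.370 to -0.208 points (exact permutation p = 8.66e-05, adjusted p = 0.000130 over the 9 regions). Ovaries ran from 0.228% (ovary 15) over a middle value of 0.273% to 0.630% (ovary 2), and testes from 0.540% (testis 14) over 0.617% to 0.697% (testis 19). All ovaries but ovary 2 lay under every testis. Without the 6 libraries of the ovary-testis pairs the difference was -0.303 points (adjusted p = 0.00333 by exact permutation). The gap between the gonads was thus 4.66 times as wide by the median as by the mean.

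At the top end, the highest CpG of a fish averaged 1.94% ± 0.509 (SD, 9 ovaries) against 0.985% ± 0.125 (SD, 10 testes) (exact permutation p = 4.33e-05). In 8 of 9 ovaries it exceeded the highest CpG of any testis, the exception being ovary 11 at 1.10%. At the bottom end, the lowest CpG of a fish averaged 0.163% ± 0.0249 (SD, 9 ovaries) against 0.297% ± 0.0650 (SD, 10 testes) (exact permutation p = 2.17e-05). All 9 ovaries lay under the lowest testis here, by a narrow margin, with 0.189% in ovary 11 against 0.194% in testis 10. Ovaries thus had both the highest and the lowest levels of the amplicon.

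The unevenness of a fish was expressed as its coefficient of variation over the 19 CpGs, that is the SD over CpGs divided by their mean. It was 0.973 ± 0.254 (SD, 9 ovaries) against 0.286 ± 0.0401 (SD, 10 testes). Values ran from 0.568 (ovary 11) to 1.41 (ovary 15) in ovaries and from 0.226 (testis 7) to 0.349 (testis 3) in testes, without overlap. The exact permutation p was 1.08e-05, which no split of 19 fish can undercut, and 2.17e-05 after adjustment over the 6 measures of this kind. Without the 6 libraries of the ovary-testis pairs the difference was 0.715, against 0.687 over all fish (exact permutation p = 0.000583). In the same terms, the 3 CpGs with the most methylated reads held 46.4% ± 10.5 of all methylated reads (SD, 9 ovaries) against 22.99% ± 1.41 (SD, 10 testes) (exact permutation p = 1.08e-05, after adjustment 2.17e-05). An even spread would put 15.8% there.

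Levels of 1% or more, a bound set after the values had been seen, occurred in 30 of 171 combinations of CpG and fish in ovaries and in 5 of 190 in testes. Every ovary had 2 to 5 such CpGs. Among testes, testis 9 had 2, testes 3, 10 and 19 had 1 each, and the other 6 had none. These combinations held 54.7% of the methylated reads of ovaries and 4.67% of those of testes. All 5 combinations of 2% or more were in ovaries. Every ovary, and no testis, had a CpG at 2 or more times its own median level.

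**Figure D2:**
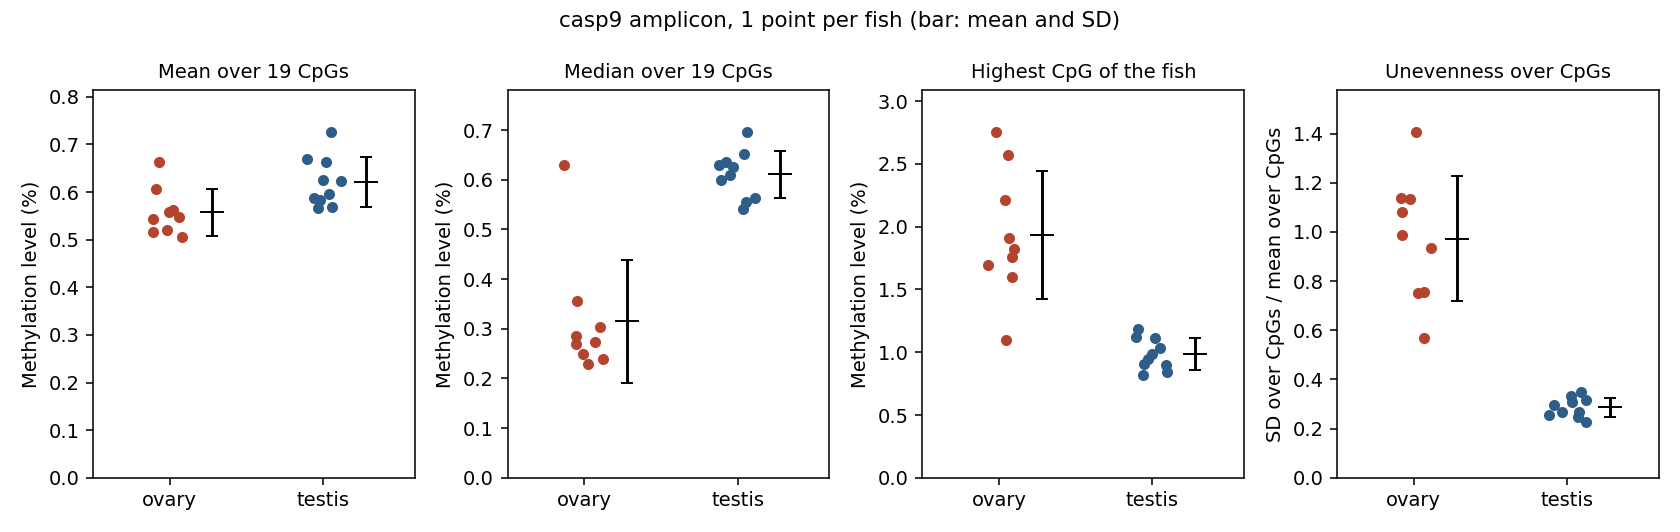
Casp9 amplicon, 1 point per fish, with ovaries left of testes and a bar for the mean and SD of each group. The panels give the mean over the 19 CpGs (%), the median (%), the highest CpG (%) and the SD over CpGs divided by their mean. The gonads overlap in the first 3 panels (in the median through ovary 2 alone), and do not overlap in the last.

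The high CpGs were not the same in each ovary. The CpG with the highest level was a different one in nearly every ovary, 8 positions serving 9 fish (in testes, 8 positions serving 10). Ovary 15, one of the deepest libraries, had 942 methylated reads of 34161 at 24973948 (2.76%, 95% Wilson interval 2.59% to 2.94%). It also had 2.16% at 24973894 and 1.95% at 24973782. Its median CpG was at 0.228%, so the highest was 12.1 times as high. No other ovary exceeded 0.743% at 24973948.

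Ovary 1 had 2.57% at 24973807 (628 of 24428 reads, 95% Wilson interval 2.38% to 2.78%), where the next ovary stood at 0.326%. Ovary 6 had nearly equal levels at 24973764 (2.21%, 337 reads) and 24973957 (2.17%, 331 reads), with 1.40% at 24973822. In ovary 18 as many as 4 CpGs stood at like levels, with 544 methylated reads at 24973822, 520 at 24973957, 538 at 24974019 and 608 at 24974060, or 1.56% to 1.82%. Whether such CpGs lie on the same molecules cannot be read from counts per position. Ovary 5 peaked at 24973735 (1.76%, 140 of 7945 reads) and ovary 2 at 24973822 (1.69%, 121 of 7139 reads).

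By position, 8 of the 19 CpGs were at 1% or more in 1 ovary, 4 in 2 ovaries, 2 in 3 ovaries and 2 in 4 ovaries (24973782 and 24973822). The remaining 3 CpGs had no ovary at 1% or more.

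Unevenness was also set against depth. Across the 9 ovaries unevenness and log10 coverage gave Pearson's r = 0.629 (exact permutation p = 0.0709, adjusted p = 0.213 over 6 relations) and Spearman's rho = 0.683 (exact permutation p = 0.0503, adjusted p = 0.145). Without the 2 ovaries farthest from the median depth r was 0.353. Across the 10 testes r came to -0.203 (permutation p = 0.570, the same after adjustment), or -0.0141 after the same omission. Their rho came to -0.103 (permutation p = 0.784).

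The spread was also set against that of read counting, a ratio that grows with depth. Within a fish the SD over CpGs was 4.80 (ovary 11) to 19.5 (ovary 15) times the SD that read counting gives in ovaries, and 1.72 (testis 12) to 3.23 (testis 9) times in testes. Between fish the SD of a CpG ran from 0.149 to 0.818 points in ovaries and from 0.0917 to 0.247 points in testes. All 19 CpGs had the larger SD in ovaries. This is not particular to casp9. Every CpG of the chromosome 19 region and of the first chromosome 5 region had it too. So did most well-covered CpGs of the second chromosome 5 region, while those of the chromosome 3 region were mixed.

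Single CpGs were then compared, with beta-binomial weights and adjustment over all 150 CpGs of the series. Of the 19 casp9 CpGs, 3 differed (15.8%), all of them lower in ovaries, and none was higher. Across the series, with all 19 fish, 47.3% of CpGs passed, 23.3% being lower and 24.0% higher in ovaries. The share of 15.8% at casp9 lies under that background. Without the 6 libraries of the ovary-testis pairs 6 casp9 CpGs passed, all lower in ovaries, the 3 named further on among them. The share over all 150 CpGs was not taken without these libraries, so this count has no background. The regions nearest to casp9 in mean level are that of chromosome 3 and the second of chromosome 5. There 1 of 29 and 2 of 23 CpGs passed, all lower in ovaries, which are smaller shares than at casp9. Those counts include positions of low coverage, which casp9 does not have. Without such positions they were 1 of 26 and 2 of 19, against 3 of 19 at casp9. Whether these shares differ was not tested. Outside casp9 68 CpGs passed, with a median size of 24.5 points. Of them 3 differed by less than 1 point, all in those nearest regions. The median of the 19 weighted differences was -0.0878 points, against -0.0401 points over all 150 CpGs. At none of the 19 did the gonads separate without overlap, which happened at 22.7% of the 150.

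At 24973726 ovaries had 0.199%, 0.255% and 0.630% as lowest, median and highest level, and testes 0.506%, 0.659% and 0.789%. Only ovary 2 (0.630%) reached into the testis range. The means were 0.337% ± 0.149 (SD, 9 ovaries) against 0.660% ± 0.0917 (SD, 10 testes), which left a difference of -0.322 points with a 95% interval of -0.439 to -0.203 (weighted -0.325 points, exact permutation p = 8.66e-05, adjusted p = 0.000342).

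The neighbouring CpG 24973728, only 2 bp away, had 0.138%, 0.262% and 0.981% in ovaries and 0.481%, 0.784% and 0.988% in testes. Ovary 2 (0.981%) and ovary 11 (0.839%) stood among the testes there. Its mean difference was -0.354 points with a 95% interval of -0.582 to -0.119 (weighted -0.355 points, exact permutation p = 0.00708, adjusted p = 0.0219).

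The other CpG that passed, 24974054, lies near the far end and is the one with uneven coverage. Ovaries had 0.248%, 0.328% and 0.715%, and testes 0.522%, 0.721% and 1.03%, with ovaries 2, 5 and 11 inside the testis range. Its mean difference was -0.329 points with a 95% interval of -0.495 to -0.162 (weighted -0.339 points, exact permutation p = 0.00104, adjusted p = 0.00380). These 3 CpGs are the ones at which no ovary reached 1%. A level that high raises the ovary mean and SD, which works against a call as lower in ovaries, so this is no separate result.

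**Figure D3:**
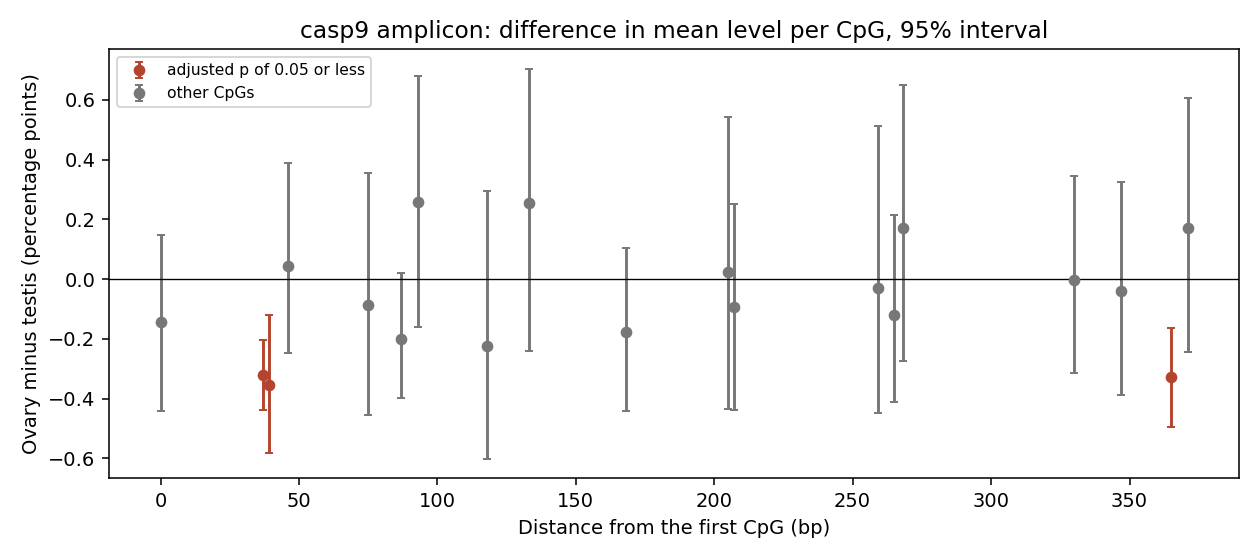
Difference in mean methylation level, ovary minus testis, in percentage points (y axis) for each of the 19 casp9 CpGs by distance from the first CpG in bp (x axis), with 95% intervals from inverting the exact permutation test. Red marks the 3 CpGs with an adjusted p of 0.05 or less. The intervals of the other 16 cross 0, and all lie between -0.602 and 0.703 points.

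The remaining 16 CpGs did not pass, and their 95% intervals all held 0. A p that misses the threshold does not show that the gonads are alike. The intervals assume that all ovaries are shifted by the same amount, although every CpG had the larger SD in ovaries. Under that assumption the bounds limit the size: no interval went under -0.602 points or over 0.703 points. The CpG with the highest mean over all fish, 24973782, was also the one with the largest difference above 0. Ovaries had 0.267%, 0.883% and 1.95% there, and testes 0.434%, 0.704% and 0.877%. With 4 ovaries at 1% or more, the means were 0.937% ± 0.605 (SD, 9 ovaries) against 0.680% ± 0.174 (SD, 10 testes) (weighted difference 0.252 points, 95% interval of the mean difference -0.162 to 0.679, exact permutation p = 0.231, adjusted p = 0.389).

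The CpG with the lowest mean, 24973776, showed how 1 fish can decide a value. Ovaries had 0.111%, 0.249% and 1.07%, and testes 0.260%, 0.538% and 0.759%. The value of 1.07% was ovary 11, and the next ovary stood at 0.293%. Over all fish the weighted difference was -0.202 points (exact permutation p = 0.0717, adjusted p = 0.147). Without ovary 11 it was -0.297 points and passed (adjusted p = 0.00140 by exact permutation).

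Means and medians of the fish pointed in different directions at some CpGs. By the mean 13 of 19 CpGs were lower and 6 higher in ovaries, and by the median fish 17 were lower and 2 higher. The share over all 150 CpGs was not counted for these directions. By the median fish, most well-covered CpGs of the chromosome 3 region and the second chromosome 5 region were lower in ovaries too. Exceptions there were 54607236, 67992821 and 67993119. A lower median fish in ovaries is thus not particular to casp9. The median of the 19 differences was -0.0880 points by means and -0.330 points by median fish. A test on the ranks of the levels, added after the data had been seen, called 5 of 19 CpGs, all lower in ovaries (26.3%, against 25.3% called lower over all 150 CpGs). The 2 further ones were 24973776 and 24973807, with adjusted p of 0.0163 and 0.00786 by exact permutation. At 24973807 the mean of ovaries carried the 2.57% of ovary 1.

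The nearest regions by mean level over all fish both stood near 0 as well. One was on chromosome 3, from 54607068 to 54607497. The other was the second region of chromosome 5, from 67992793 to 67993138. Mean levels in the second chromosome 5 region were 0.542% ± 0.120 (SD, 9 ovaries) against 0.535% ± 0.0753 (SD, 10 testes). In the chromosome 3 region they were 0.605% ± 0.157 (SD, 9 ovaries) against 0.493% ± 0.0766 (SD, 10 testes). Neither mean difference passed (adjusted p of 0.880 and 0.0781 by exact permutation). These means include positions of low coverage, 4 in the second chromosome 5 region and 3 in the chromosome 3 region. At these positions the median fish of either gonad stood at 0%. They allow the casp9 difference to be set against other unmethylated DNA of the same fish.

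Expressed as casp9 minus the mean of both other regions in each fish, levels were -0.0159 ± 0.0825 points (SD, 9 ovaries) against 0.107 ± 0.0686 points (SD, 10 testes). The difference of -0.123 points had a 95% interval of -0.196 to -0.0501 points (exact permutation p = 0.00244). Without the positions of low coverage it was -0.114 points (exact permutation p = 0.00336). With medians in place of means the difference was -0.125 points (95% interval -0.197 to -0.0455, exact permutation p = 0.00452). By means and against the chromosome 3 region alone it was -0.176 points (exact permutation p = 0.00985). Against the second chromosome 5 region alone it was -0.0705 points and did not pass (95% interval -0.167 to 0.0279, exact permutation p = 0.146). By the mean, the sex difference of casp9 therefore differed from that of the chromosome 3 region, and was not shown to differ from that of the second chromosome 5 region. These tests kept testis 14, which had a median of 19 reads in the chromosome 3 region. The ovary mean of that region also carried single high values, up to 12.3% in 1 ovary at 54607290. Averaged over fish, the median over all positions of that region was 0.315% in ovaries and 0.342% in testes, testis 14 included.

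The second chromosome 5 region also had a lower median and a higher unevenness in ovaries than in testes. Its median over all 23 CpGs was 0.250% ± 0.0833 (SD, 9 ovaries) against 0.565% ± 0.0924 (SD, 10 testes), a difference of -0.315 points (exact permutation p = 2.17e-05, adjusted p = 3.90e-05). Set against casp9 fish by fish, the sex difference of the medians changed by 0.0194 points (95% interval -0.0987 to 0.144, exact permutation p = 0.766). Its coefficient of variation, without 4 positions of low coverage, was 1.11 ± 0.272 (SD, 9 ovaries) against 0.384 ± 0.0604 (SD, 10 testes) (exact permutation p = 1.08e-05, adjusted p = 1.62e-05 over 3 regions). Whether the sex difference in unevenness differed between that region and casp9 was not tested. Levels of 1% or more were found in 33 of 171 combinations in ovaries and 12 of 190 in testes.

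In the chromosome 3 region levels of 1% or more were found in 22 of 234 combinations in ovaries and 24 of 260 in testes, testis 14 included. At the depth of testis 14 there, 1 methylated read of 19 gives 5.26% and so counts as 1% or more. With testis 14 left out, which had a median of 19 reads there, the medians were 0.334% ± 0.171 (SD, 9 ovaries) against 0.406% ± 0.0898 (SD, 9 testes), without 3 positions of low coverage (difference -0.0721 points, exact permutation p = 0.274). The sex difference of the medians at casp9 minus that in the chromosome 3 region, over the same fish, was -0.231 points (95% interval -0.364 to -0.104, exact permutation p = 0.000411). Its coefficient of variation was 1.72 ± 1.10 (SD, 9 ovaries) against 0.753 ± 0.356 (SD, 9 testes) (exact permutation p = 0.0289, not adjusted). With testis 14 kept, testes had 1.03 ± 0.941 (SD, 10 testes) and the difference did not pass (exact permutation p = 0.160).

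**Figure D4:**
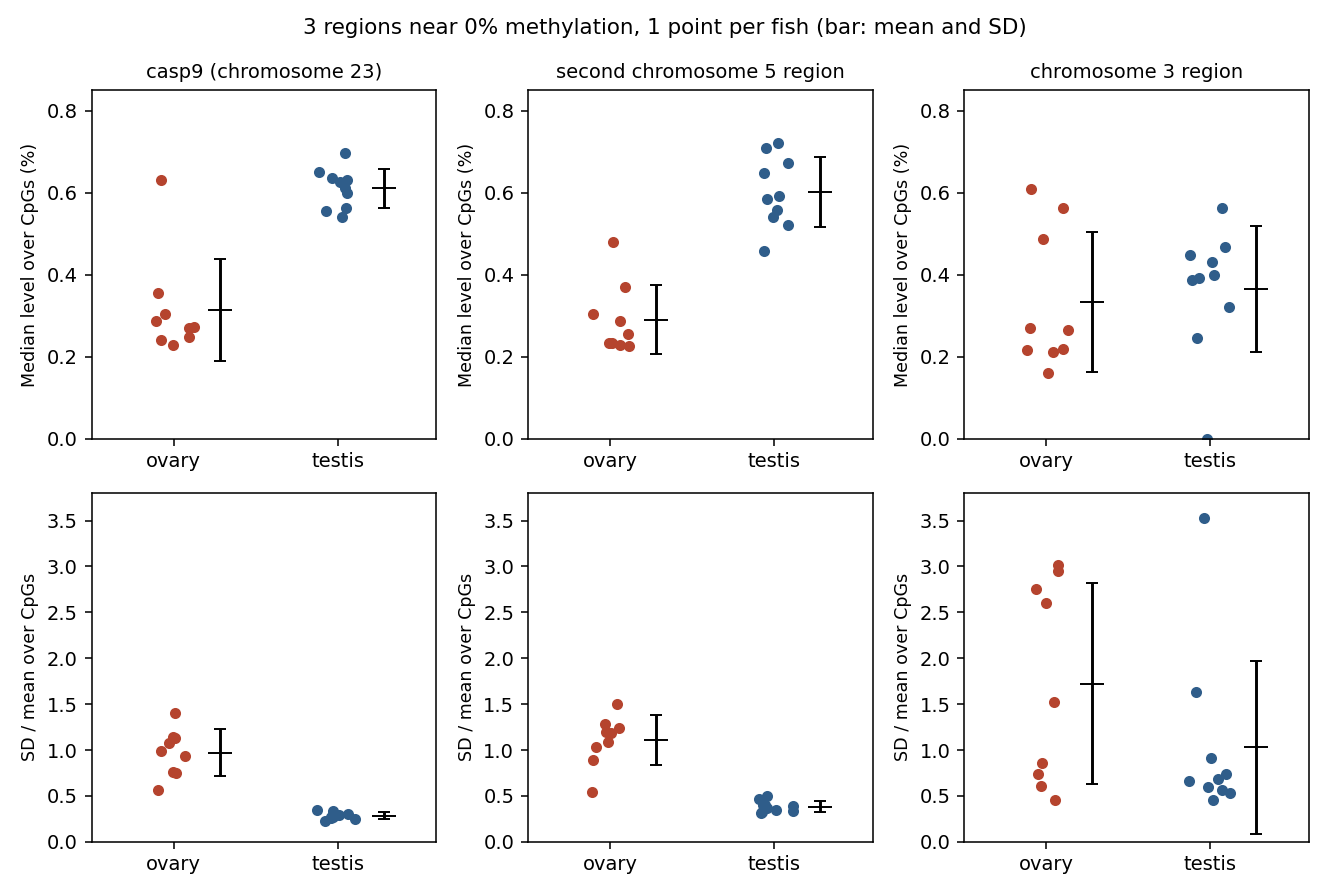
Median level over CpGs in percent (upper row) and SD over CpGs divided by their mean (lower row) for casp9, the second chromosome 5 region and the chromosome 3 region, without positions of low coverage. Each point is 1 fish, ovaries left of testes, with a bar for mean and SD. At casp9 and the second chromosome 5 region ovaries mostly have lower medians and, without overlap, higher unevenness, while in the chromosome 3 region the gonads overlap in both.

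The casp9 median of each fish was also set against its mean of the medians of both other near-0 regions, and no such relation passed adjustment over the 6 relations. Among the 9 ovaries Pearson's r came to 0.493 (exact permutation p = 0.129, after adjustment 0.258). Spearman's rho came to 0.667 there (exact permutation p = 0.0589, after adjustment 0.145). Among the 10 testes r came to 0.659 (permutation p = 0.0376, after adjustment 0.213). There rho came to 0.600 (permutation p = 0.0724, after adjustment 0.145). With the 2 fish omitted that lay farthest from the middle level of the other regions, r was 0.829 in ovaries and 0.665 in testes. The values come from the same libraries, so a level that all 3 regions of a library share would enter both sides, and this was not tested.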

How the data were processed

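Gonad DNA of 19 zebrafish was measured by amplicon bisulfite sequencing. Per the labels' protocols, 1000 ng of DNA per sample was converted and libraries carried Nextera XT indexes. Tools listed in the submitters' processing notes are Bismark with Bowtie2 on GRCz11, FastQC 0.11.6 and Trim Galore 0.4.5. The deposited files hold, per fish and position, the count of methylated and of unmethylated reads, not normalized, and the percent methylated that the authors computed from them. Recomputed percents matched in all 4476 combinations (tolerance 1e-06), and the series table held the same counts. Calls per fish ran from 488594 to 2235082.

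A position entered a fish at 10 reads and was tested with 5 fish per sex. Positions under 1000 bp apart formed a region, and a fish needed 50% of its CpGs. Low coverage means under 10% of the region's median. Levels were compared by two-sided exact permutation of the sex labels over 92378 arrangements, per CpG with Williams beta-binomial weights estimated over all fish, with Benjamini-Hochberg adjustment and a threshold of 0.05. The 95% intervals invert that test on unweighted means and assume a constant shift between the gonads. Correlations of 10 fish used 100000 resamples.

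CpGs described in full were those past the threshold and those with the extreme means and differences. The gene, lists and tests were chosen with earlier results of these data known. Alternatives were other coverage minimums, weights, scales, summaries, and leaving out each fish or the 6 libraries of the ovary-testis pairs. Computation used pandas 2.3.3, scipy 1.17.1 and numpy 2.4.6 under Python 3.11.15, and plots matplotlib 3.10.9.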

Additional observations from a re-analysis of the deposited data

Results flagged for a closer look

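Single fish stood far from the rest of their gonad in 9 of 50 sets of casp9 values, by Dixon's test at 95%. The sets were 6 summaries and 19 CpGs, each in ovaries and in testes. For normally distributed values the test flags about 1 set in 20 by chance. Ovary levels were skewed by single high values and the summaries come from the same CpGs, so the count cannot be set against that rate. Of the flagged sets, 7 were in ovaries and 2 in testes. Among ovaries, ovary 2 had the highest median over CpGs, 0.630% against 0.356% in the next fish. The other 6 were highest ovaries at single CpGs. Ovary 5 had 1.76% at 24973735 (next 0.703%), ovary 6 had 2.21% at 24973764 (next 0.868%) and ovary 11 had 1.07% at 24973776 (next 0.293%). Ovary 1 had 2.57% at 24973807 (next 0.326%), ovary 15 had 2.76% at 24973948 (next 0.743%) and ovary 2 had 1.65% at 24973954 (next 0.687%). In testes, testis 9 was highest at both CpGs concerned, with 1.18% at 24973689 (next 0.631%) and 0.921% at 24973957 (next 0.662%).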

How the results depend on the processing

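The difference in casp9 region mean, ovary minus testis, was -0.0765 to -0.0517 points without 1 fish (adjusted p up to 0.0457), and it also passed by log-odds and by the median. Coverage minimums of 5, 30 and 100 reads and the removal of low-coverage positions leave every casp9 level as it is, since no casp9 CpG had under 2459 reads, so they say nothing of the stability of those levels. They do change the other near-0 regions. Casp9 minus those regions was -0.103 points at 5 reads (exact permutation p = 0.0265), -0.126 at 30 and -0.115 at 100. Without low-coverage positions it was -0.114 points, and it passed in each case. Without the 6 libraries of the ovary-testis pairs, left out after seeing the data, the region mean (-0.0590 points) and the pooled reads (-0.0569 points) did not pass, with fewer fish tested. The same omission gave 6 called CpGs and a coverage ratio of 0.928. The pooled difference stayed at -0.0734 to -0.0482 points without 1 fish, and the median at -0.335 to -0.285 points. The count of 3 CpGs was 3 to 4 without 1 fish, and 5 on the log-odds scale and 5 by ranks. A share over all CpGs of the series was taken only for the main count and for the ranks. Casp9 minus the other near-0 regions was -0.142 to -0.100 points without 1 fish, and only against the second chromosome 5 region alone did it not pass (-0.0705 points); the cause was not tested. The coverage ratio was 0.975 to 1.23 without 1 fish, falling under 1 without ovary 15 (0.975) or ovary 18 (0.978), and never passed. Unevenness differed by 0.632 to 0.737, and the share in the top 3 CpGs by 21.1 to 25.3 points. Measures of unevenness, the 1% bound, the repeats of the median without 1 fish, the rank test and the comparisons with single regions were chosen after seeing the data. CpG 24973776 passed on the log-odds scale, by ranks, without ovary 11 and without the 6 libraries. The 3 called CpGs passed without each fish, under both other weightings, on the log-odds scale, by ranks and with adjustment within the region. No paired analysis was possible because the fish numbers of the gonads do not overlap. Depth limits the precision most in ovary 17, where 24973776 had 6 methylated reads.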
